A study of Mus musculus with 17 samples.

Results

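Cortical mRNA diluted to 0.1 pg was compared with the same mRNA diluted to 1 pg, each amplified for 2 rounds and hybridized to Affymetrix mouse arrays. The comparison rests on 6 of the 17 arrays of the series, 3 titled with 0.1 pg and 2 rounds and 3 titled with 1 pg and 2 rounds. All of them carry mRNA from the cortex of adult female C57BL/6 mouse brain that received no treatment, so that the groups differ in the amount of mRNA that entered the amplification. The 0.1 pg and 1 pg groups are replicate amplifications of diluted mRNA and not separate animals, and p-values therefore measure the spread between amplifications. Unamplified mRNA of the same cortex (5 µg, 1 array, called bulk here) is shown as a reference level only.

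In antisense RNA amplification, mRNA is copied from its poly(A) tail by a primer that carries a T7 promoter, and T7 RNA polymerase then makes many antisense copies of each cDNA, which enter the next round. When the starting amount is close to or below that of a single cell, a transcript is present in few copies, and each copy may or may not be reverse transcribed. Cortex holds excitatory and inhibitory neurons, astrocytes, oligodendrocytes, microglia and vessels, and its neurons are rich in transcripts for synaptic vesicles, ion channels and the cytoskeleton.

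Levels are log2 values above or below the median of their own array, brought to the same spread between the 10th and 90th percentiles on every array, and changes are 0.1 pg minus 1 pg. Each gene is read from 1 probe set, that of the highest mean level in the series. The bulk array carried markers of neurons and astrocytes above its median, with a median level of 2.01 over 19 pan-neuronal genes and 3.13 over 16 astrocyte genes. Over all genes it was 0.42, and over 3 blood genes -0.42. Markers of oligodendrocytes (0.85), vessels (0.64) and microglia (0.38) were closer to the median of all genes, and those of choroid plexus and ependyma were at -0.44. The values of the amplified arrays were coarse: 10.3%, 7.37% and 3.19% of probe sets shared the commonest value on the 0.1 pg arrays, against 1.57%, 4.27% and 2.41% on the 1 pg arrays. The commonest values lay at -0.72, -1.05 and -1.35 on the 0.1 pg arrays, and genes at these levels have no order among themselves. The 18 hybridization control probe sets lay above their deposited bulk level by a mean log2 difference of 2.28, 2.17 and 1.82 on the 0.1 pg arrays and by 0.65, 1.93 and 1.14 on the 1 pg arrays, and their part in the results below was not tested.

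The 0.1 pg arrays followed bulk less closely than the 1 pg arrays did. Over 45037 probe sets, Pearson's r with bulk was 0.580, 0.608 and 0.598 at 0.1 pg, against 0.692, 0.705 and 0.681 at 1 pg. The groups did not overlap, and the means were 0.596 ± 0.0143 at 0.1 pg and 0.693 ± 0.0121 at 1 pg (SD, n = 3 each), a difference of -0.0970 with p = 0.1 in an exact two-sided permutation test, the smallest p that 3 against 3 arrays allow. Replicates also resembled each other less, with r of 0.729, 0.703 and 0.732 for the 3 pairs at 0.1 pg and 0.882, 0.899 and 0.885 for the 3 pairs at 1 pg. Pairs of a group share arrays, and no test was made of this difference of -0.168. These correlations are across probe sets, which are not independent replicates.

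**Figure D1:**
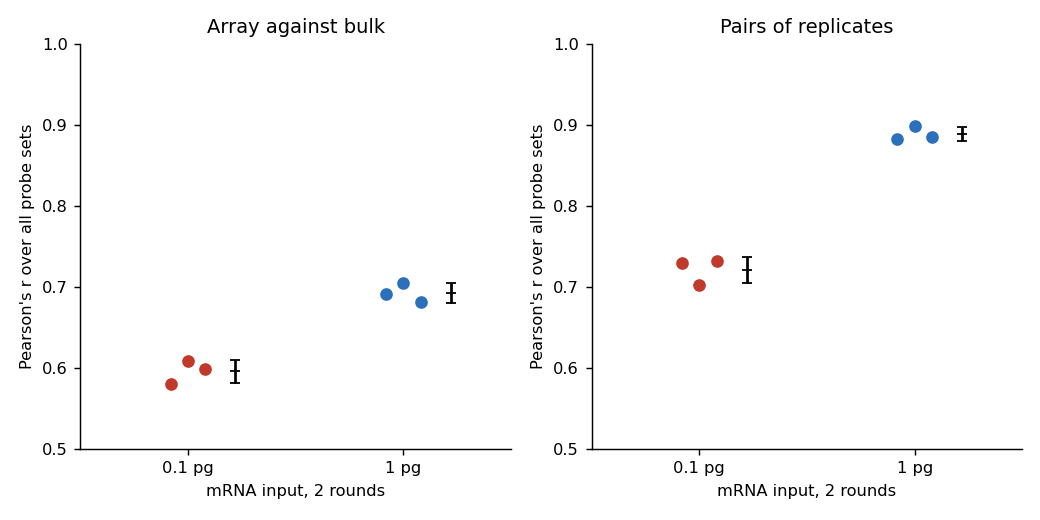
Pearson's r over 45037 probe sets (vertical axes, from 0.5 to 1) for each array against bulk (left) and for each pair of replicates (right), at 0.1 pg and 1 pg after 2 rounds, with the mean and SD of 3 values beside the points. All values at 0.1 pg lie below all values at 1 pg in both panels.

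The sets of most abundant transcripts overlapped those of bulk at both inputs. Of the 910 genes in the top 5% of bulk, 81.3%, 83.1% and 82.6% were in the top 5% of the 0.1 pg arrays, and 81.9%, 85.4% and 85.7% in that of the 1 pg arrays. These shares overlapped, and their difference of -1.98 percentage points had p = 0.3 in an exact two-sided permutation test. In the top 5% of all arrays of the group were 681 of these genes at 0.1 pg and 711 at 1 pg, and 634 were there on all 6 arrays. Genes of the top 5% of bulk that fell below the array median were few, with 12, 14 and 16 on the 0.1 pg arrays and 1, 0 and 3 on the 1 pg arrays, and these counts did not overlap.

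Of these, 2 genes were below the median on all 0.1 pg arrays and on none at 1 pg, and they were singled out after their values were seen. Nucks1, a chromatin-associated nuclear phosphoprotein, was at -1.15, -0.22 and -0.80 at 0.1 pg, against 3.62, 4.51 and 3.38 at 1 pg and 5.58 in bulk. The other was Moxd2, a monooxygenase-like gene, at -0.72, -2.67 and -0.80 at 0.1 pg, against 0.09, 1.65 and 0.11 at 1 pg and 5.29 in bulk. Neither passed the test across all probe sets, with adjusted p = 0.0725 for Nucks1 and 0.102 for Moxd2 (limma).

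Between replicates, the spread was larger at 0.1 pg. The median SD of a gene over its 3 arrays was 0.820 at 0.1 pg and 0.455 at 1 pg, and it was larger at 0.1 pg for 13487 of 18193 genes (74.1%). After 4 rounds of amplification, on other arrays, it was 0.406 at 0.1 pg and 0.528 at 1 pg. With genes put into 10 equal groups by their level in bulk, group 10, the most abundant, had a median SD of 0.293 at 0.1 pg and 0.231 at 1 pg, and group 1 had 0.893 at 0.1 pg and 0.568 at 1 pg.

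**Figure D2:**
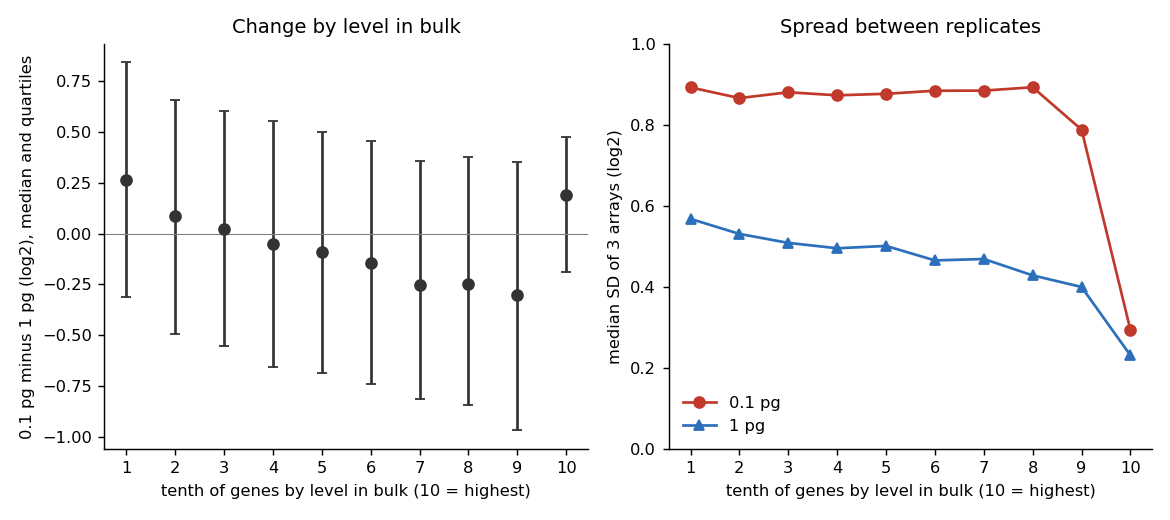
Genes in 10 equal groups by their level in bulk (horizontal axes, 10 = highest). Left, the median change of 0.1 pg minus 1 pg (log2) with the quartiles of genes as bars, 0.26 in group 1, -0.30 in group 9 and 0.19 in group 10, a sign that turns under the other scalings. Right, the median SD of the 3 arrays at 0.1 pg and at 1 pg, which is lowest in group 10 with 0.293 at 0.1 pg and 0.231 at 1 pg.

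The median change differed between genes of low and high level in bulk, and this was described without a test. The median change was 0.26 in group 1, -0.09 in group 5 and -0.30 in group 9, against -0.04 over all genes. In group 10 it was 0.19 with the main scaling but -0.07 in the deposited values, -0.16 with median centering alone and -0.06 with quantile normalization, so that no direction can be given there. Median centering alone moved the median of all genes to -0.11.

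To ask which genes differed between the inputs, probe sets were tested with limma, with p-values adjusted by Benjamini and Hochberg over all 45037. With the spread estimated over all 7 groups of the series, 704 probe sets (1.56%) changed at an adjusted p under 0.05, 278 higher (0.617%) and 426 lower (0.946%) at 0.1 pg. In the deposited values the split was 264 higher and 252 lower. Each SE given below rests on the same pooled spread, although the median SD of a gene was 0.820 at 0.1 pg and 0.455 at 1 pg. The calls rest on this pooled spread: when the arrays of 0.1 and 1 pg were fitted by themselves, 0 passed (5288 at an unadjusted p under 0.05), and with a weight for each group's spread, 1 passed, that of Dmrt3 (4892 at an unadjusted p under 0.05). Without 1 pg replicate 1, 2 or 3 the count was 59, 107 or 22, and without 0.1 pg replicate 3 it was 2176.

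At the level of genes, 295 of 18193 changed (1.62%), of which 85 were higher (0.467%) and 210 lower (1.15%) at 0.1 pg. The 3 arrays of each group did not overlap for 1711 genes that were higher (9.4%) and 2085 that were lower (11.5%) at 0.1 pg. The genes that fell had a median level of -0.29 at 0.1 pg, 2.46 at 1 pg and 1.34 in bulk, and 172 of 210 lay above the median of the bulk array, as did 11104 of all 18193 genes. The genes that rose had a median level of 1.57 at 0.1 pg, -0.72 at 1 pg and -0.12 in bulk, and 39 of 85 lay above the median of the bulk array. Genes that fell counted 40 in group 9 of the bulk levels and 4 in group 1, while genes that rose counted 2 in group 9 and 16 in group 1.

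Transcripts for the vesicle fusion machinery were among the 12 largest falls. The largest falls and rises were taken from genes that passed and whose arrays did not overlap. That their groups lie apart is therefore set by the choice. Vamp2, the SNARE protein of the synaptic vesicle, was at -0.35, -1.05 and -0.39 at 0.1 pg, against 4.53, 2.83 and 3.86 at 1 pg and 4.15 in bulk. Every 0.1 pg array was below its median and every 1 pg array was well above it, a change of -4.33 ± 0.54 (SE, adjusted p = 0.00506, limma). Snap25, its partner in the plasma membrane of the terminal, was at -1.64, -1.05 and 0.27 at 0.1 pg, against 3.04, 3.57 and 2.55 at 1 pg and 4.26 in bulk. The groups did not overlap, and the change was -3.86 ± 0.55 (adjusted p = 0.00913, limma). A second probe set of Snap25 fell by 2.60 (adjusted p = 0.0198), and a second one of Vamp2 differed by -2.47 without passing (adjusted p = 0.0630).

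The largest fall was that of Grina, a membrane protein, at -2.83, -2.20 and -2.75 at 0.1 pg, against 3.10, 1.03 and 3.13 at 1 pg. The change was -5.01 ± 0.90 (adjusted p = 0.0198), and bulk lay between the groups at 0.55. Its other probe set differed by 0.21 (adjusted p = 0.876). Cdk16, a cyclin-dependent kinase of the PCTAIRE type, was at -2.21, -1.77 and -0.80 at 0.1 pg, against 3.74, 1.65 and 4.28 at 1 pg (-4.81 ± 1.08, adjusted p = 0.0393). Ppp1r12a, the targeting subunit of myosin phosphatase, was at -2.21, -1.77 and -1.73 at 0.1 pg, against 2.47, 4.13 and 2.02 at 1 pg (-4.77 ± 1.03, adjusted p = 0.0353), and Myh9, the heavy chain of a non-muscle myosin, fell by 4.15 (adjusted p = 0.0435). In Cdk16 and Ppp1r12a the first pair of 0.1 pg values coincide, as values on these arrays are often tied.

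Dmrt3, a transcription factor with a DM domain, had the smallest adjusted p of the largest changes. It was at -1.15, -2.20 and -0.58 at 0.1 pg, against 3.25, 2.74 and 4.21 at 1 pg and 1.88 in bulk (-4.71 ± 0.48, adjusted p = 0.00130). The groups were far apart at this probe set, but its other 3 probe sets differed by 1.31, 0.97 and 0.91, the opposite direction, and none of them passed. Ociad1, a protein of mitochondria and endosomes, was at 0.30, -0.47 and 0.14 at 0.1 pg, against 4.43, 4.23 and 4.27 at 1 pg and 3.90 in bulk, which gave a change of -4.32 ± 0.51 (adjusted p = 0.00428). All 1 pg replicates of Ociad1 were far above all at 0.1 pg, but its other probe set differed by 0.94 (adjusted p = 0.454).

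The other large falls were those of Ndufb2, an accessory subunit of respiratory complex I (-4.27), Theg, a spermatid gene (-3.94), Def6, a signaling protein of T cells (-3.87), and Skp1, the adaptor of SCF ubiquitin ligases (-3.83), with adjusted p between 0.0100 and 0.0240. Skp1 was at -2.21, -4.29 and -0.48 at 0.1 pg and at 0.69, 2.43 and 1.40 at 1 pg, below its bulk level of 4.26 at both inputs. Theg was near its bulk level of -0.35 at neither input, with -1.15, -3.15 and -1.35 at 0.1 pg and 2.06, 2.50 and 1.60 at 1 pg.

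**Figure D3:**
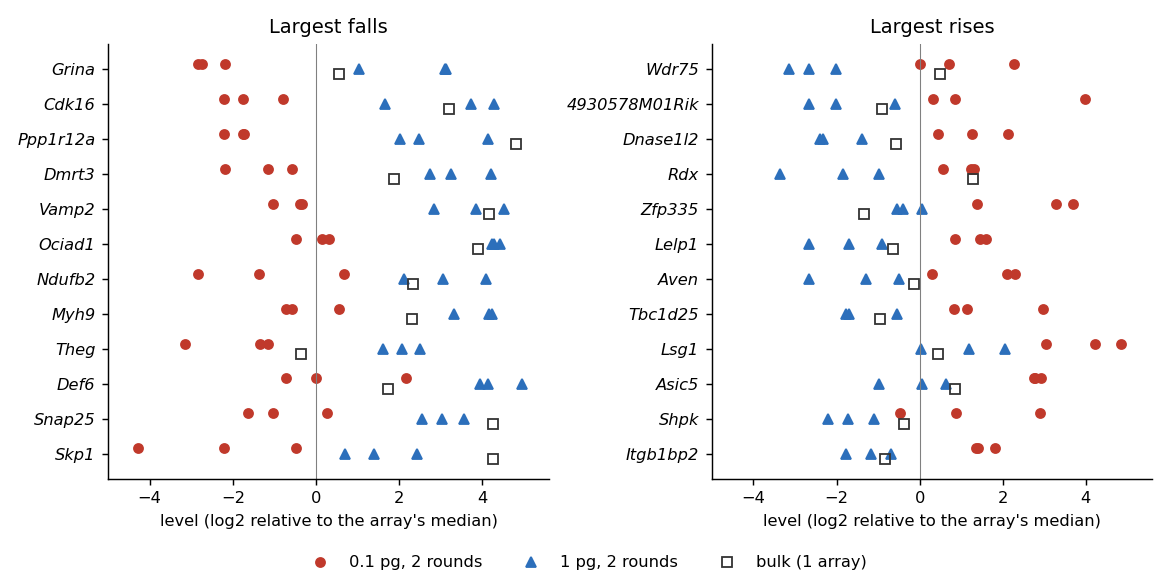
Level (log2, array median at 0) of the 12 genes with the largest fall (left) and the 12 with the largest rise (right) among those that passed, for the 3 arrays of 0.1 pg (circles), the 3 arrays of 1 pg (triangles) and the bulk array (open squares). By the choice of genes the 2 inputs do not overlap; bulk lies near the 1 pg arrays for Vamp2 and Ociad1 and near the 0.1 pg arrays for Rdx.

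The genes with the largest rises among those that passed included Wdr75, Lsg1, Asic5 and Rdx. Wdr75, a factor of small ribosomal subunit assembly, was at 2.26, 0.00 and 0.72 at 0.1 pg, against -3.15, -2.67 and -2.02 at 1 pg and 0.49 in bulk. This was the largest rise among the genes that passed, of 3.61 ± 0.62 (adjusted p = 0.0187). Lsg1, a GTPase of large ribosomal subunit export, was at 4.85, 4.21 and 3.04 at 0.1 pg, against 0.03, 2.05 and 1.18 at 1 pg and 0.44 in bulk (2.94 ± 0.53, adjusted p = 0.0198). By the choice of genes, all 0.1 pg arrays exceeded all 1 pg arrays at both.

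Asic5, of the acid-sensing ion channel family, had the closest 0.1 pg replicates of the rises, at 2.77, 2.76 and 2.91, against 0.06, 0.64 and -0.97 at 1 pg and 0.85 in bulk (2.90 ± 0.53, adjusted p = 0.0198). Rdx, the cytoskeletal linker radixin, was at 0.57, 1.24 and 1.30 at 0.1 pg, close to its bulk level of 1.27, against -0.97, -3.35 and -1.85 at 1 pg. Rdx differed by 3.09 ± 0.56 (adjusted p = 0.0198), while its other 2 probe sets differed by -1.80 and -0.25 without passing. The remaining rises lay between 2.75 and 3.48 and comprised 4930578M01Rik, the nuclease Dnase1l2, the zinc finger gene Zfp335, the cornified envelope gene Lelp1, the apoptosis inhibitor Aven, the Rab GTPase activator Tbc1d25, the sugar kinase Shpk and the muscle gene Itgb1bp2. In bulk, all 8 of these were below the median of the array.

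At other probe sets of the same genes, changes were seldom called. Of the 210 genes that fell, 129 had other probe sets, 264 in all, and 145 of these were negative (54.9%, against 46.9% of all other probe sets), with 6 called lower. Of the 85 genes that rose, 30 had other probe sets, 47 in all, and 29 were positive (61.7%, against 53.1%), with 0 called (limma).

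Among the gene lists, few members passed and most medians were negative. In the 14-3-3 family, adaptors that bind phosphorylated proteins, 2 of 7 members fell (1.15% of all genes did) and 5 of 7 were lower without overlap (11.5% of all genes), and the median change was -2.22, against -0.04 over all genes. Ywhaz was at 3.69, 3.77 and 4.76 at 0.1 pg, against 6.22, 6.49 and 6.45 at 1 pg and 6.77 in bulk (-2.31 ± 0.41, adjusted p = 0.0197). Ywhae was at 0.00, -1.38 and -0.68 at 0.1 pg, against 1.92, 3.33 and 1.78 at 1 pg and 5.99 in bulk (-3.03 ± 0.63, adjusted p = 0.0300). Ywhag (-2.54), Ywhab (-2.22) and Ywhah (-1.31) were lower without overlap but did not pass (the members outside the naming rule were added after their values were seen), while Ywhaq (-1.09) and Sfn (0.96) overlapped. Probe sets of Ywhaz differed among themselves: 2 further ones fell, and the other 4 differed by -0.78 to 1.45 without passing.

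In the list of synaptic vesicle and fusion genes, Vamp2 and Snap25 fell, 2 of 20 measured members (1.15% of all genes fell), and 8 were lower without overlap (11.5% of all genes). The list median was -0.37, and Syn1, which coats vesicles, had the highest change of 1.60 (adjusted p = 0.598). Clathrin endocytosis, which retrieves vesicle membrane, also had 2 members that fell, of 22, with 8 lower and 2 higher without overlap (11.5% and 9.4% of all genes) and a median of -0.59. Ap2a2, a subunit of the AP-2 adaptor, was at 0.81, -0.47 and -0.14 at 0.1 pg, against 1.91, 4.45 and 3.72 at 1 pg (-3.29 ± 0.58, adjusted p = 0.0192), although its 4 other probe sets all differed in the opposite direction. Cltc, the clathrin heavy chain, was at 0.00, 0.99 and 1.83 at 0.1 pg, against 2.80, 4.41 and 2.63 at 1 pg and 5.58 in bulk (-2.34 ± 0.53, adjusted p = 0.0398), and its other probe set differed by 0.19 without passing.

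Of receptors and scaffolds on the other side of the synapse, 0 of 20 glutamate receptor genes and 0 of 17 scaffold genes passed. Of 14 GABA receptor genes 1 fell, Gabrq (-2.02, adjusted p = 0.0455, limma), while 1.15% of all genes did. The scaffold Homer1 had the lowest change of its list, -3.60 (adjusted p = 0.157), with 1.04, -0.22 and 4.80 at 0.1 pg, against 5.57, 5.31 and 5.55 at 1 pg. Replicate 3 stood far from the others there. Of 16 genes whose mRNA is localized in dendrites 0 passed, and Camk2a was the lowest at -1.97 (adjusted p = 0.113). The list of calmodulin and its kinases held 12 measured genes, all with symbols that begin with Camk and none of them for calmodulin. Of these, 0 passed as well, with a median of -1.32 and 4 lower and 1 higher without overlap (11.5% and 9.4% of all genes).

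Markers of cell types showed few calls, set here beside 1.15% of all genes that fell. Of 19 pan-neuronal genes 1 fell, Snap25, with a list median of -0.66. By sign 6 members were positive and 13 negative, and the highest was Tubb3 at 1.98 without passing (adjusted p = 0.0892, limma). The median level of that list was 0.57, 0.21 and -0.30 on the 0.1 pg arrays, against 2.24, 1.03 and 1.62 on the 1 pg arrays and 2.01 in bulk. The groups did not overlap, but neither did the medians over all genes, which were 0.30, 0.39 and 0.45 at 0.1 pg and 0.55, 0.52 and 0.58 at 1 pg. The vascular list had 2 of 16 members that fell, Rgs5 and Pdgfrb, and by sign 7 members were positive and 9 negative. Its highest member was Cspg4, at 2.89, 1.36 and 0.87 at 0.1 pg, against 0.58, 0.75 and 0.58 at 1 pg. Cspg4 differed by 1.07 without passing (adjusted p = 0.253, limma). Rgs5, a regulator of G protein signaling, was at 0.57, -0.22 and 0.96 at 0.1 pg, against 4.06, 3.75 and 3.42 at 1 pg and 4.41 in bulk (-3.31 ± 0.45, adjusted p = 0.00796). Pdgfrb, a receptor for platelet-derived growth factor, was at 3.28, 1.58 and 3.59 at 0.1 pg, against 6.30, 5.63 and 4.68 at 1 pg and 2.33 in bulk (-2.72 ± 0.55, adjusted p = 0.0278). The other 3 probe sets of Rgs5 differed by -1.55 to -0.08 and that of Pdgfrb by -0.12, and none passed. Both groups of Rgs5 and of Pdgfrb were apart, yet the vascular list median of -0.22 changed its sign in 1 of 10 alternatives.

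For excitatory neurons (16 genes), inhibitory neurons (18), astrocytes (16), oligodendrocytes (15), microglia (14), blood (3) and choroid plexus and ependyma (10), 0 members passed (limma), with list medians between -0.88 and -0.04, and those of excitatory and inhibitory neurons and of the choroid plexus changed sign under some alternatives. In tissue mRNA, fewer cells of a type and less RNA per cell cannot be told apart. Here both inputs were dilutions of the same cortical mRNA, so the lists describe levels and not numbers of cells. Of the astrocyte genes, 5 were positive and 11 negative. The lowest, the glutamate transporter Slc1a2, was at -0.72, -1.05 and -0.39 at 0.1 pg, against 2.61, 1.83 and 3.06 at 1 pg and 4.13 in bulk. It did not pass (-3.22 ± 0.91, adjusted p = 0.0844, limma), and -0.72 and -1.05 are the commonest values of their arrays. Its 4 other probe sets differed by -1.13 to 0.27 without passing. The highest was Gja1 (0.64, adjusted p = 0.614, limma), higher without overlap. Its other probe sets differed by -1.62 to 2.11, and the one at 2.11 passed (adjusted p = 0.0454, limma).

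**Figure D4:**
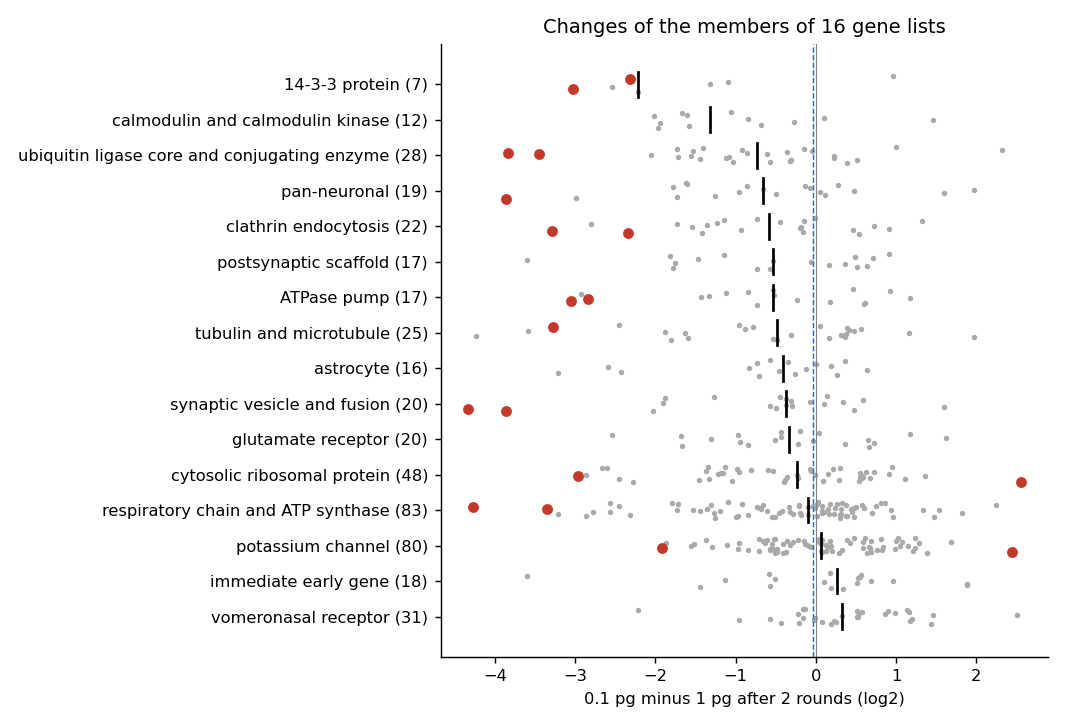
Change of 0.1 pg minus 1 pg after 2 rounds (log2, horizontal axis) of each measured member of 16 gene lists, with the number of members in parentheses. Large points passed the test, small points did not, black bars are list medians and the dashed line is the median of all genes, -0.04; the 14-3-3 list has the lowest median of these 16, -2.22, and the vomeronasal receptors the highest, 0.33.

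Groups of housekeeping genes had few calls, set here beside 1.15% of all genes that fell and 0.467% that rose. Of 83 respiratory chain and ATP synthase genes, Ndufb2 and Ndufa13, both of complex I, fell by 4.27 and 3.35, and the median was -0.09. Cytosolic ribosomal protein genes (48 measured) had 1 call each way. Rps26 was at 3.47, 3.07 and 2.50 at 0.1 pg, against 0.44, 0.58 and 0.35 at 1 pg and 1.62 in bulk (2.56 ± 0.43, adjusted p = 0.0160), and Rpl41 was at 0.30, -0.47 and -1.19 at 0.1 pg, against 3.53, 1.11 and 2.86 at 1 pg (-2.96 ± 0.69, adjusted p = 0.0432). Ribosomal protein genes have near-identical pseudogenes, and signal at both is uncertain in origin. In 28 genes of ubiquitin ligase cores and conjugating enzymes, Skp1 and the conjugating enzyme Ube2w (-3.45) fell and the median was -0.73. Proteasome (31 genes), chaperone (26) and translation factor (29) genes had 0 calls (limma).

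Single members fell in several other lists, while over all genes 1.15% fell and 0.467% rose. These were the microtubule destabilizer Stmn1 (-3.28, list of 25 genes), the kinesin light chain Klc1 (-2.47, list of 23) and the glycolytic enzyme Pgam1 (-2.86, list of 14). The peptide-processing enzyme Cpe (-3.73, list of 15) and the splicing factor Prpf19 (-3.82, list of 36) fell too. Their adjusted p lay between 0.0311 and 0.0496 (limma). Of 17 ATPase pump genes measured, 2 fell, the calcium pumps Atp2a3 of the endoplasmic reticulum (-3.06) and Atp2b2 of the plasma membrane (-2.84). Of 59 RAB GTPase genes, Rab7 (-2.24) and Rab10 (-1.99) fell, both of membrane traffic. Of 80 potassium channel genes, Kcnn1 (2.44) rose and Kcnk3 (-1.92) fell. All other probe sets of Rab10, Kcnn1, Kcnk3 and Cpe had the opposite sign, and none of them passed. Among the lists of genes that cortex is not known for, Krt8 of 44 keratin genes rose by 2.10, and 0 passed of 38 olfactory receptors, 31 vomeronasal receptors, 33 Hox genes, 24 testis-restricted genes and 21 genes of liver, muscle and pancreas (limma).

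Control probe sets for repeats and ribosomal RNA were lower at 0.1 pg. The probe set for the B1 repeat, a short element scattered through mouse transcripts, was at 0.30, 1.96 and 1.49 at 0.1 pg, against 5.27, 4.39 and 6.53 at 1 pg and 4.74 in bulk, a difference of -4.15. That for the B2 repeat was at 1.46, 3.16 and 3.78 at 0.1 pg, against 5.44, 6.69 and 5.84 at 1 pg and 7.06 in bulk, a difference of -3.19. The probe sets for the end nearer 3′, the end nearer 5′ and the middle of 18S ribosomal RNA differed by -1.64, -2.05 and -2.74, and none of these overlapped between the groups, against 9.75% of all probe sets that were lower without overlap. Control probe sets were kept out of the fit, and their part in the results was not tested.

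Differences between the 3′ and the 5′ probe set of a transcript overlapped between the inputs. For Gapdh, the 3′ minus the 5′ probe set was 2.81, 4.32 and 3.22 at 0.1 pg, against 3.03, 4.20 and 5.58 at 1 pg and 2.05 in bulk. For β-actin it was -1.60, -3.34 and 0.29 at 0.1 pg, against 1.29, -0.70 and 0.65 at 1 pg and 1.09 in bulk. The groups overlapped for both transcripts. They also overlapped for pyruvate carboxylase (0.17, -1.05 and 0.26 at 0.1 pg, against -1.02, -1.41 and -0.59 at 1 pg). The same held for the transferrin receptor (2.42, 5.62 and 5.17, against 4.84, 5.74 and 3.79) and for 18S ribosomal RNA (2.23, 0.97 and 0.11, against 0.07, 0.93 and 1.10). The 3′ probe set of Gapdh itself was at 6.57, 6.46 and 6.30 at 0.1 pg, against 5.91, 6.34 and 6.49 at 1 pg.

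The same inputs were amplified for 4 rounds on separate arrays, and the effect of input there was set beside the one after 2 rounds. Across 18193 genes, which are not independent replicates, r between both effects was -0.115. After 4 rounds, 619 genes (3.4%) changed, 368 of them higher (2.02%) and 251 lower (1.38%) at 0.1 pg. Of the 210 genes that fell after 2 rounds, 26 also fell and 29 rose after 4 rounds, and of the 85 that rose after 2 rounds, 0 rose and 2 fell after 4 rounds.

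A test of the difference between both effects passed for 727 genes (4%), 176 more positive (0.967%) and 551 more negative (3.03%) after 2 rounds. Among probe sets it passed for 1619 (3.59%), and for 880 when the 4 compared groups were fitted alone. Without 1 pg replicate 1, 2 or 3 after 2 rounds it passed for 499, 1076 or 588 probe sets, and without 0.1 pg replicate 3 for 3331. Vamp2 averaged 2.80 at 0.1 pg and 1.97 at 1 pg after 4 rounds, a change of 0.83 (adjusted p = 0.427), and its changes after 2 and 4 rounds differed by -5.16 (adjusted p = 0.00479). Snap25 fell after 4 rounds too, with 2.98 at 0.1 pg and 5.95 at 1 pg (-2.97, adjusted p = 0.0100), and the difference of -0.89 between its changes did not pass (adjusted p = 0.542). Skp1, Ppp1r12a, Cpe and Ube2w likewise fell after 4 rounds, with changes of -4.41, -6.17, -6.20 and -5.51. So did Ywhae (-3.90), Cltc (-5.16) and Atp2b2 (-1.89). The median change of the 14-3-3 list after 4 rounds was -1.51, against 0.04 over all genes, while that of the calmodulin kinase list was 0.33. These medians were not tested.

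**Figure D5:**
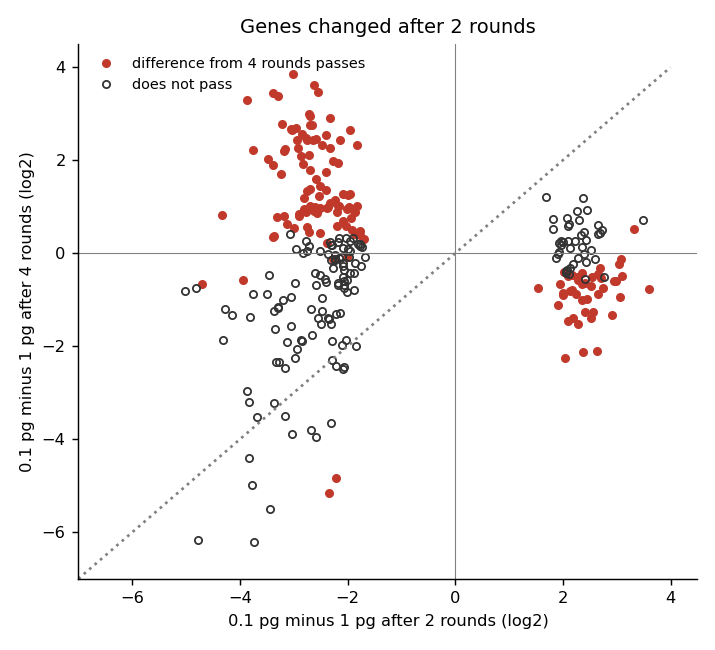
Change of 0.1 pg minus 1 pg (log2) after 2 rounds (horizontal axis) and after 4 rounds (vertical axis) for the 295 genes that changed after 2 rounds, with filled points where the difference between both changes passed the test and a dotted line of equal changes. Of the 210 genes on the left, 95 were negative after 4 rounds, as were 8775 of all 18193 genes, and of the 85 on the right, 29 were positive, as were 9418 of all genes.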

How the data were processed

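The authors deposited log2 values of 45101 probe sets on 17 Affymetrix mouse expression arrays, summarized with RMA 2.0 per the labels, with the upper decile statistic per the methods; a genome build is not given in the sources used here. Neither the centering nor the scaling of the methods was in the deposited log2 values, whose array medians lay between 5.64 and 6.01. Medians were therefore set to 0, and the spread between the 10th and 90th percentiles was brought to its mean over the arrays, 4.63. After 64 controls were left out, 45037 probe sets remained, of which 34945 carried 1 gene symbol (18193 genes), 932 several and 9160 none, and 0 symbols were updated.

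Probe sets were fitted with limma 3.58.1 in R 4.3.3 (7 group means, all 17 arrays, eBayes, 16.4 degrees of freedom), with Benjamini-Hochberg adjustment and a threshold of 0.05. Array measures were tested by exact permutation in scipy 1.17.1 (numpy 2.4.6, pandas 2.3.3). No 2 of the 6 arrays shared more than 0.926% identical values. The number of arrays limits the precision.

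Genes named are the 12 largest falls and rises among changed genes whose arrays did not overlap, up to 6 changed members of each of 39 gene lists, the highest and lowest member of each list, and probe sets along control transcripts. The comparison, the members and the lists were chosen with earlier results of these data known. Alternatives were other scalings, a filter on low probe sets, other fits, the methods' t-test, a replicate block, the methods' false discovery rate and each replicate left out; leaving out probe sets at a commonest value was added after seeing the data.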

Additional observations from a re-analysis of the deposited data

Results flagged for a closer look

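For 29 of the 105 genes named under the rule, the effect of input (0.1 pg minus 1 pg) differed between 2 and 4 rounds by the test of the difference itself (limma, adjusted p under 0.05, as for 4% of all genes). The difference, 2 rounds minus 4 rounds, is given in log2, and arrays of 2 and 4 rounds are separate samples. Most of the named genes were chosen for their change after 2 rounds, which is part of the difference, so their number and the sign of their differences are a description and support nothing.

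In 3 genes the effects were called in opposite directions: Def6 (difference -7.17; -3.87 after 2 and 3.30 after 4 rounds), the calcium pump Atp2a3 (-5.73; -3.06 after 2 and 2.67 after 4 rounds) and the pericyte receptor Pdgfrb (-5.71; -2.72 after 2 and 2.99 after 4 rounds). The effect of 6 genes was called lower after 2 rounds and not called after 4, with differences of -5.16 for Vamp2, -4.09 for Rgs5, -4.05 for Dmrt3, -3.36 for Theg, -2.62 for Gabrq and -2.42 for Kcnk3. Cltc fell in both, by more after 4 rounds (difference 2.82; -2.34 after 2 and -5.16 after 4 rounds).

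Among genes not called after 2 rounds, the difference was -6.52 for the sperm acrosome gene Acrv1 (called higher after 4 rounds, 3.84), -4.14 for the mitochondrial ribosomal protein gene Mrpl12, -4.06 for the elastase Cela1 and -4.06 for the kinase Camkk2, -3.91 for the complement gene C1qa and -3.51 for the vomeronasal receptor gene Vmn1r53.

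For genes that rose after 2 rounds and were not called after 4, the choice sets a positive sign, and the differences were 4.37 for Wdr75, 4.22 for Asic5, 4.01 for Lelp1, 3.81 for Rps26, 3.59 for Tbc1d25, 3.58 for Rdx, 3.55 for Lsg1, 3.50 for Itgb1bp2, 3.43 for Kcnn1, 3.28 for Aven, 3.20 for Zfp335, 2.79 for Dnase1l2 and 2.60 for Krt8.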

How the results depend on the processing

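The count of 704 probe sets changed after 2 rounds fell to 0 when the arrays of 0.1 and 1 pg were fitted by themselves, 0 by the methods' t-test (4783 at an unadjusted p under 0.05), 0 at the methods' false discovery rate of 0.1% and 1 with a weight per group, whose value was 0.422 for 0.1 pg, 1.19 for 1 pg and 0.930 to 1.46 for the other groups. Other scalings, the filter on low probe sets (115 higher, 466 lower) and a trended fit gave 516 to 672. Leaving out 1 array gave 22 to 2176 probe sets. The difference between rounds, 1619 probe sets, became 880 for the compared groups alone, 802 with weights and 0 at 0.1%, and 499 to 3331 with 1 array left out; the t-test was not run for it. The replicate numbers did not pair the samples (r of deviations between -0.02 and 0.04), and with the replicate block 326 probe sets changed. The difference in replicate correlation was -0.149 without probe sets below the median, -0.270 by Spearman's rho, -0.136 per gene and -0.186 to -0.157 with 1 array left out; the cause was not tested. The differences in correlation with bulk and in the top list kept their sign in every alternative run. Of the 47 named genes called, 39 to 43 stayed called under other scalings and the trended fit, 35 with the block, 27, 38 and 44 without 0.1 pg replicates 1, 2 and 3, and 11, 16 and 6 without 1 pg replicates 1, 2 and 3. Of 105 named genes, 1 turned its sign: Rsph1 (0.65) was at -0.0201 without 0.1 pg replicate 1 and at most 1.37 with 1 array left out. Ties at the commonest values and the pooled spread limit the order of low genes.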
